A study of Homo sapiens with 3 samples.

Results

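The endoplasmic reticulum (ER) chaperones and targets of XBP1 described here are 10 genes, HSPA5, HSP90B1, PDIA4, PDIA6, DNAJB9, XBP1, CALR, SDF2L1, HERPUD1 and CRELD2, chosen by name out of 30866 gene symbols in the deposited expression table. All 10 were present, on 1 row each, and all were among the 13425 genes that reached 1 FPKM in 1 or more of the libraries. FPKM counts sequenced fragments per kilobase of transcript, scaled to the mapped fragments of the library, so levels can be set side by side between genes within a library. The cells were HCC827, an established human lung adenocarcinoma line, grown as a polyclonal pool carrying the ClonTracer library of DNA barcodes. The dual-resistant population came from the erlotinib-resistant population after 10 days in 2 µM erlotinib, which inhibits the kinase of EGFR, with 0.2 µM crizotinib, which inhibits MET. The erlotinib-resistant population had been in 2 µM erlotinib for 47 days. The vehicle population had 0.1% DMSO for 4 days. Each population was profiled by RNA sequencing in 1 library, so no difference below has an error estimate or a test. Drug, length of treatment and resistance differed together and cannot be told apart.

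Secreted and membrane proteins fold in the ER with the help of chaperones and of enzymes that form disulphide bonds. When unfolded proteins build up there, the sensors ERN1 (also called IRE1), ATF6 and EIF2AK3 (also called PERK) start the unfolded protein response. ERN1 removes a short intron from XBP1 mRNA, so that the active transcription factor XBP1 is made. XBP1 and cleaved ATF6 then raise genes of folding and of ER-associated degradation, which sends misfolded proteins to the proteasome. The deposited values are per gene, so the spliced and unspliced forms of XBP1 mRNA are counted together.

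ATF6 and XBP1 act at short promoter elements, and the sequences that carry these elements in the 10 genes are shown first. The windows are RefSeq promoter sequences of GRCh38.p14, from 250 bases before to 50 bases after each annotated start, 300 bases each. RefSeq held a window for all 10 genes, and a second one for PDIA4, PDIA6 and XBP1. The ER stress element (ERSE) was searched as CCAAT and CCACG with any 9 bases between them, the second ER stress element (ERSE-II) as ATTGG and CCACG with any 1 base between them, and the unfolded protein response element as TGACGTGG, on both strands. In the lines below each match stands with 10 bases on either side, 5′ to 3′ on the strand of the gene, and capitals mark the fixed letters of the element. A match on the other strand reads CGTGG first.
HSPA5, ERSE, chr9:125241381-125241419, minus strand: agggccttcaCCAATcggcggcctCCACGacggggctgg
HSP90B1, ERSE, chr12:103930206-103930244, plus strand: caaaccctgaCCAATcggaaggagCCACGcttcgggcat
HSP90B1, ERSE, chr12:103930311-103930349, plus strand: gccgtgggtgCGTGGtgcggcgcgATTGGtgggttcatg
PDIA6, ERSE, chr2:10812843-10812881, minus strand: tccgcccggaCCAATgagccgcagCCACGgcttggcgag
XBP1, ERSE, chr22:28800593-28800631, minus strand: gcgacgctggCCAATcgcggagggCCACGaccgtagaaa
CALR, ERSE, chr19:12938374-12938412, plus strand: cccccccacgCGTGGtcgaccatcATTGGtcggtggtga
SDF2L1, ERSE-II, chr22:21642104-21642134, plus strand: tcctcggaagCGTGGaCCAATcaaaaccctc
HERPUD1, ERSE-II, chr16:56932015-56932045, plus strand: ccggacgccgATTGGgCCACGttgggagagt
CRELD2, ERSE, chr22:49918544-49918582, plus strand: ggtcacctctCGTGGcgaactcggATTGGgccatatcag

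The ERSE stood in 6 of the 10 genes, HSPA5, HSP90B1, PDIA6, XBP1, CALR and CRELD2, and the ERSE-II in SDF2L1 and HERPUD1. HSP90B1 held the ERSE at 2 places. None of the matches in these genes overlapped another. Over all 27305 genes with a window, 25 held the ERSE (0.0916%) and 19 the ERSE-II (0.0696%). PDIA4 and DNAJB9 held none of the 3 elements in these letters, and the unfolded protein response element was in none of the 10 genes, against 253 of all genes (0.927%). The chaperones were among the genes from which these elements were first described, so their presence here is background and not a finding. A match is a description of letters and not a site in use. Counted from the annotated start, the first base of the element lay at -66 in HSPA5, -52 in XBP1 and -225 in CALR.

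Whole windows are shown for HSPA5 and HERPUD1, which were lower in dual-resistant than in erlotinib-resistant cells. The third is that of CALR, which was higher there by less than 2-fold. Any link between these sequences and the levels was not tested.
HSPA5, whole window, chr9:125241294-125241593, minus strand: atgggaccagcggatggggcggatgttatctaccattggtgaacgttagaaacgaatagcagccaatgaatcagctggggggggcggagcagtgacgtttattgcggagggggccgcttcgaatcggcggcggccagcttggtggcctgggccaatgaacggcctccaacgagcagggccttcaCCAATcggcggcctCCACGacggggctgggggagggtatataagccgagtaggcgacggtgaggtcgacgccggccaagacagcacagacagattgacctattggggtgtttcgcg
HERPUD1, whole window, chr16:56931892-56932191, plus strand: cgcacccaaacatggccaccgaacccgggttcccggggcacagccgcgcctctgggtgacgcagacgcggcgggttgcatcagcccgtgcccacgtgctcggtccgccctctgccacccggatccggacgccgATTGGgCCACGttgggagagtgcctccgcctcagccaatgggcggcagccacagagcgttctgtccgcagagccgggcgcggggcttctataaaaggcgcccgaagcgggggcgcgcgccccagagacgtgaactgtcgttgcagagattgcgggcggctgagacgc
CALR, whole window, chr19:12938359-12938658, plus strand: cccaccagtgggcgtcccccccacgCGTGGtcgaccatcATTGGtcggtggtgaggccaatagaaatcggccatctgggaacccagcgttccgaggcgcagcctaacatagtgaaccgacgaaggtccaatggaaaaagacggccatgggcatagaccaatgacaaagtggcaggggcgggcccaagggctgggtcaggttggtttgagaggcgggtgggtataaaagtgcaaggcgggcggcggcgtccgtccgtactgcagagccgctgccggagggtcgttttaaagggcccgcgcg

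The 3 libraries summed to 494817 FPKM (dual-resistant), 528920 FPKM (erlotinib-resistant) and 596084 FPKM (vehicle). The table holds no counts. By an estimate from single-exon genes, the lowest of the 10 genes in each library still stood on about 505 fragments per kilobase in dual-resistant cells, 649 in erlotinib-resistant cells and 1440 in vehicle cells. Scaling each library to the same sum would move every difference by 0.10 (dual-resistant minus erlotinib-resistant), 0.17 (erlotinib-resistant minus vehicle) or 0.27 (dual-resistant minus vehicle) on the log2 scale before the pseudocount. The 8 epithelial markers of the line summed to 1821 FPKM in dual-resistant cells, 3489 in erlotinib-resistant cells and 3878 in vehicle cells. SFTPB was near 0 in dual-resistant cells and at 0.663 FPKM in vehicle cells. EPCAM, KRT19, CDH1 and SFTPB were higher in erlotinib-resistant cells than in vehicle, and KRT8, KRT18, NKX2-1 and NAPSA were lower. EPCAM had 41.1, 345 and 306 FPKM in the dual-resistant, erlotinib-resistant and vehicle libraries, and KRT8 had 542, 573 and 905 FPKM. The 6 mesenchymal markers summed to 613, 54.0 and 112 FPKM in the same order, with COL1A2 at or near 0 in all 3. FN1 alone had 176, 27.9 and 101 FPKM, and VIM had 414, 23.3 and 7.04 FPKM. Members of each list thus differed in direction between the erlotinib-resistant and vehicle libraries, which the sums do not show. The part of these shifts in the differences below was not tested. Blood and endothelial markers were near 0, with CD3E and HBB at 0 in all 3 libraries, apart from CD14 at 4.10 FPKM in vehicle cells. In bulk RNA, fewer cells that express a gene and less RNA per cell cannot be told apart.

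The 10 genes spanned a wide range of levels, and the most abundant of them were among the highest genes of each library. They summed to 1247 FPKM in dual-resistant cells, 1560 in erlotinib-resistant cells and 1716 in vehicle cells, or 0.252%, 0.295% and 0.288% of all FPKM. Their median percentile among genes with at least 1 FPKM was 88.8 in dual-resistant cells, 93.1 in erlotinib-resistant cells and 94.8 in vehicle cells. HSPA5 was first of the 10 in the erlotinib-resistant and vehicle libraries, whereas in dual-resistant cells HSPA5 stood behind CALR and HSP90B1. In vehicle cells the order from high to low was HSPA5, CALR, HSP90B1, PDIA6, PDIA4, HERPUD1, XBP1, SDF2L1, DNAJB9 and CRELD2. In erlotinib-resistant cells HSP90B1 stood above CALR and XBP1 above HERPUD1, and DNAJB9 stood above SDF2L1. In dual-resistant cells XBP1, HERPUD1, SDF2L1 and CRELD2 followed PDIA4, and DNAJB9 was last. HSP90B1 and HSPA5 stood within 1 FPKM of each other in dual-resistant cells, and without replicates the order of such neighbours cannot be told.

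**Figure D1:**
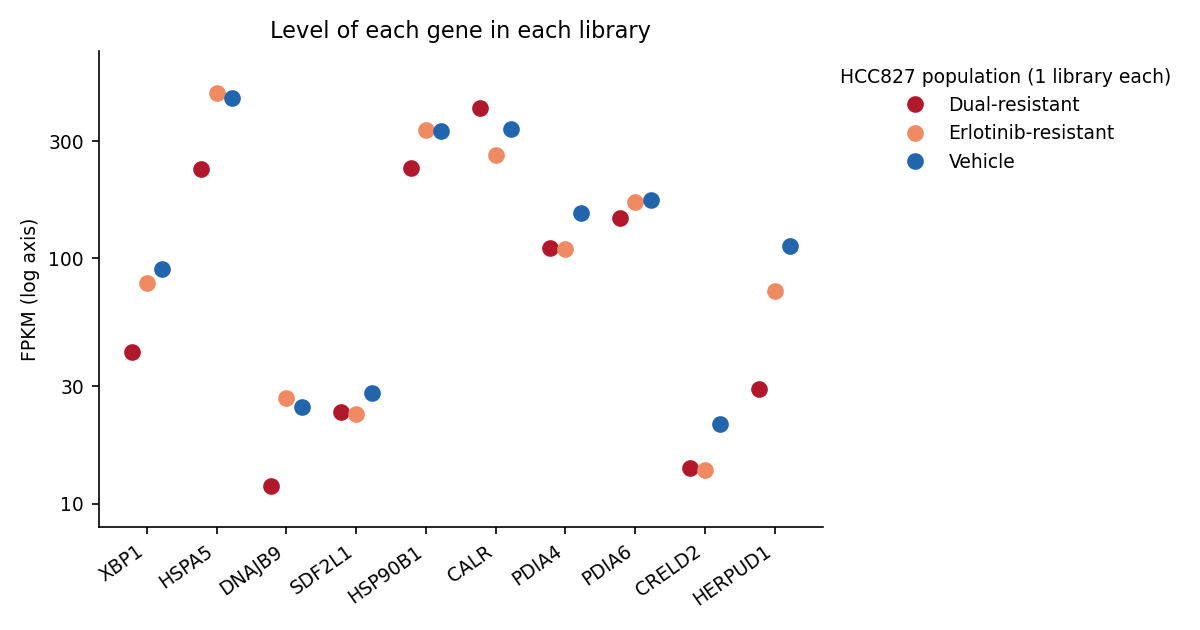
Level of each of the 10 genes in FPKM (vertical log axis) in the dual-resistant (dark red), erlotinib-resistant (orange) and vehicle (blue) libraries, 1 point per library. CALR is the 1 gene with its highest point in dual-resistant cells, at 408 FPKM, and HERPUD1, XBP1, HSPA5 and DNAJB9 have their lowest points there, well below both others.

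The first question was how dual-resistant cells differed from the erlotinib-resistant cells that gave rise to them. HERPUD1, DNAJB9 and HSPA5 were lower by at least 2-fold in dual-resistant cells, XBP1 was 1.89-fold lower, and HSP90B1 was lower by less. PDIA4, SDF2L1 and CRELD2 stood at nearly the same FPKM in both libraries, and CALR was higher. A gene was called higher or lower at a log2 difference of FPKM + 1 of 1 or more in either direction, by size alone. Every fold given for a difference is likewise of FPKM + 1, and is smaller than the ratio of the FPKM values printed beside it. Of the 10 genes 3 were called lower and none higher. Of all 13385 genes compared, 7.22% were called lower and 10.1% higher, and of the 6951 with a mean of at least 10 FPKM, 7.14% and 6.49%. The median log2 difference of the 10 genes was -0.36, against -0.03 over all genes compared.

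XBP1, the transcription factor of the ERN1 branch (Entrez ID 7494, chr22:29190548-29196560, GRCh37), stood at 41.5 FPKM in dual-resistant cells, 79.2 in erlotinib-resistant cells and 90.3 in vehicle cells. Both resistant libraries were below vehicle, and the larger step lay between the resistant populations. The log2 difference was -0.92 for dual-resistant minus erlotinib-resistant, -0.19 for erlotinib-resistant minus vehicle and -1.10 for dual-resistant minus vehicle.

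HSPA5, the ER member of the Hsp70 family, also called BiP, binds unfolded chains and holds the sensors inactive (Entrez ID 3309, chr9:127997127-128003666). Its values were 231 FPKM in dual-resistant cells, 470 in erlotinib-resistant cells and 448 in vehicle cells. The dual-resistant library alone was low, and the other libraries were within 1.05-fold of each other. The dual-resistant library was 2.03-fold below erlotinib-resistant cells (log2 difference -1.02) and 1.93-fold below vehicle (-0.95). After scaling to equal sums the difference from the erlotinib-resistant library was -0.92, and with median-of-ratios scaling it was -0.97, so under either scaling HSPA5 was just within the limit.

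DNAJB9, a J-domain co-chaperone of HSPA5 also called ERdj4 (Entrez ID 4189, chr7:108210189-108215294), had 11.7 FPKM in dual-resistant cells, 27.0 in erlotinib-resistant cells and 24.8 in vehicle cells. Its pattern was the closest of the 10 to that of HSPA5. The ratio of DNAJB9 to HSPA5 within a library, which no scaling of libraries can move, was 0.0507 in dual-resistant cells, 0.0574 in erlotinib-resistant cells and 0.0553 in vehicle cells. On the FPKM + 1 scale DNAJB9 in dual-resistant cells was 2.19-fold below erlotinib-resistant cells (log2 difference -1.13) and 2.02-fold below vehicle (-1.02). With a pseudocount of 5 these were -0.93 and -0.83, within the limit. It lies on 7q, 8.1 Mb from MET, the kinase gene that stood at 96.2 FPKM in dual-resistant cells, 763 in erlotinib-resistant cells and 98.9 in vehicle cells. Between the erlotinib-resistant and vehicle libraries DNAJB9 differed by 0.12 on the log2 scale, where MET differed by 2.93. For dual-resistant minus erlotinib-resistant the log2 differences were -1.13 for DNAJB9 and -2.97 for MET. Any link between these genes was not tested.

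SDF2L1, an ER protein that works with HSPA5 and its J-domain partners (Entrez ID 23753, chr22:21996542-21998588), had 23.6 FPKM in dual-resistant cells, 23.3 in erlotinib-resistant cells and 28.2 in vehicle cells. The resistant libraries were nearly equal, unlike HSPA5, and both lay below vehicle. Its log2 differences were 0.02 for dual-resistant minus erlotinib-resistant and -0.27 for erlotinib-resistant minus vehicle.

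HSP90B1, the ER member of the Hsp90 family, also called GRP94 (Entrez ID 7184, chr12:104324189-104341703), had 232 FPKM in dual-resistant cells, 331 in erlotinib-resistant cells and 330 in vehicle cells. Here too the dual-resistant library was the low one and the others were level. The dual-resistant library was 1.42-fold below each of the others, which is within the limit. HSP90B3P, a pseudogene of this family, was listed at 0 in all 3 libraries.

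CALR, calreticulin, a chaperone that binds sugar chains and calcium (Entrez ID 811, chr19:13049414-13055304), had 408 FPKM in dual-resistant cells, 263 in erlotinib-resistant cells and 336 in vehicle cells. It was the only 1 of the 10 that was higher in dual-resistant cells than in vehicle as deposited, while PDIA6 and SDF2L1 joined it, by 0.02 and 0.01 on the log2 scale, with libraries scaled to the same sum. The dual-resistant library was 1.55-fold above erlotinib-resistant cells, within the limit, and the erlotinib-resistant library was the lowest. The ratio of CALR to HSPA5 was 1.76 in dual-resistant cells, 0.561 in erlotinib-resistant cells and 0.749 in vehicle cells. CANX, calnexin, its membrane-bound relative, had 169 FPKM in dual-resistant cells, 212 in erlotinib-resistant cells and 233 in vehicle cells, so the ratio of CALR to CANX was 2.41, 1.24 and 1.44 in the same order.

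PDIA4 and PDIA6 are protein disulphide isomerases, which form and rearrange disulphide bonds. PDIA4 (Entrez ID 9601, chr7:148700154-148725782) had 110 FPKM in dual-resistant cells, 109 in erlotinib-resistant cells and 153 in vehicle cells. PDIA6 (Entrez ID 10130, chr2:10923517-10978103) had 145 FPKM in dual-resistant cells, 169 in erlotinib-resistant cells and 173 in vehicle cells. PDIA4 was level between the resistant libraries and differed between the erlotinib-resistant and vehicle libraries (log2 difference -0.49). PDIA6 differed little in either step, by -0.22 for dual-resistant minus erlotinib-resistant and -0.03 for erlotinib-resistant minus vehicle. With libraries scaled to the same sum these were -0.12 and 0.14, so the sign of the second turned. All of these differences lie within the limit.

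CRELD2, a secreted and ER-resident protein with EGF-like repeats (Entrez ID 79174, chr22:50312283-50321186), had 14.0 FPKM in dual-resistant cells, 13.7 in erlotinib-resistant cells and 21.1 in vehicle cells. As with PDIA4, the resistant libraries were level and both below vehicle. Among all pairs of the 10 genes, PDIA4 and CRELD2 had the most alike pair of differences (Euclidean distance 0.0984 on the log2 scale), followed by HSPA5 and DNAJB9 (0.124).

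HERPUD1, a membrane protein that takes part in ER-associated degradation (Entrez ID 9709, chr16:56965748-56977793), had 29.3 FPKM in dual-resistant cells, 73.6 in erlotinib-resistant cells and 112 in vehicle cells. It had the lowest log2 difference of the 10 in both comparisons of dual-resistant cells, and about the same as CRELD2 in erlotinib-resistant cells against vehicle. On the FPKM + 1 scale dual-resistant cells were 2.46-fold below erlotinib-resistant cells (log2 difference -1.30) and 3.73-fold below vehicle (-1.90), and the erlotinib-resistant library was 1.51-fold below vehicle (-0.60). It was called lower in dual-resistant cells, against either other library, under all the alternatives tried. The ratio of HERPUD1 to HSPA5 was 0.126 in dual-resistant cells, 0.157 in erlotinib-resistant cells and 0.250 in vehicle cells.

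**Figure D2:**
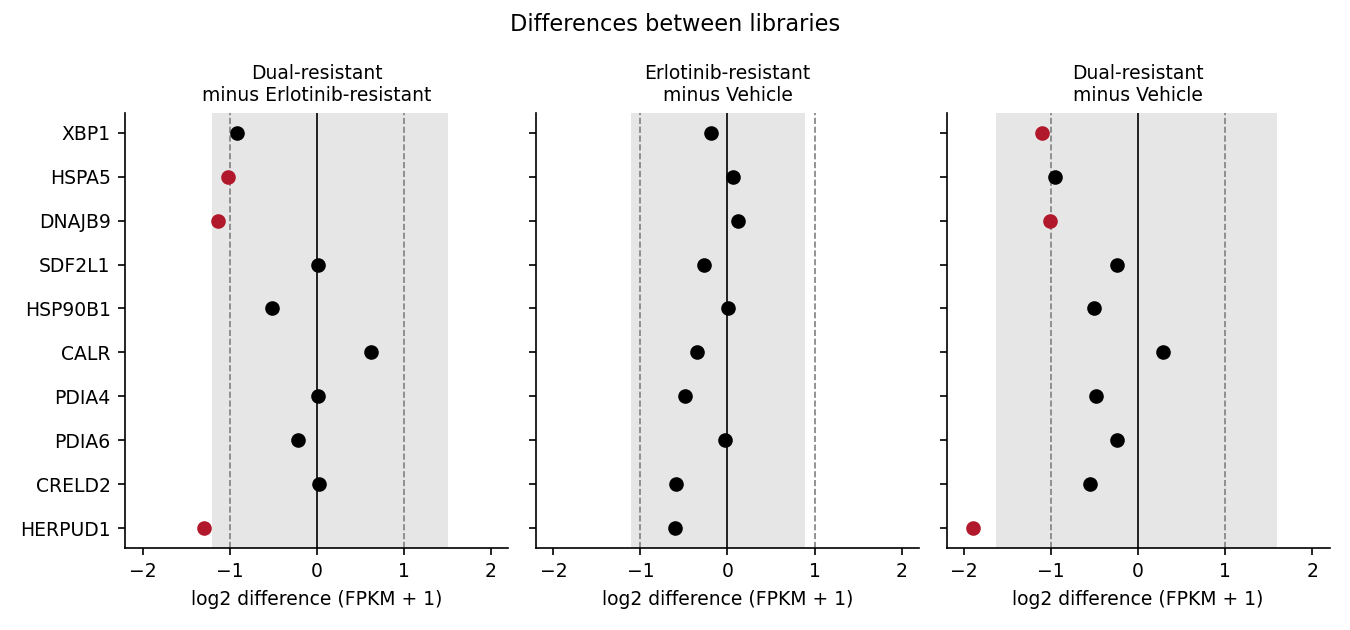
Log2 difference of FPKM + 1 of each of the 10 genes in the 3 comparisons, with dashed lines at the limit of 1 in either direction, red points past it, and a grey band from percentile 5 to 95 of all genes compared. In the left panel HERPUD1 lies furthest left at -1.30, and in the middle panel all points lie between -0.60 and 0.12.

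The second question was how the erlotinib-resistant population differed from vehicle-treated cells. None of the 10 genes was called in either direction. The furthest from 0 were HERPUD1 (log2 difference -0.60), CRELD2 (-0.59) and PDIA4 (-0.49), and HSPA5, HSP90B1, PDIA6 and DNAJB9 lay within 0.12. Of the 13381 genes compared, 6.03% were called lower and 3.81% higher, and of those with a mean of at least 10 FPKM 4.27% and 3.49%. With libraries scaled to the same sum 4.78% of all genes were called lower and 5.53% higher. The median of the 10 genes was -0.23 and that of all genes 0.00, and the scaled values were -0.058 and 0.14.

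Against vehicle, the dual-resistant library had 3 of the 10 genes called lower, HERPUD1, XBP1 and DNAJB9, and none higher. Of 13378 genes compared, 10.4% were called lower and 11% higher, and of those with a mean of at least 10 FPKM 9.54% and 8.13%. HSPA5, at -0.95, was just within the limit. With libraries scaled to the same sum, only HERPUD1 was called (log2 difference -1.63), XBP1 stood at -0.84 and DNAJB9 at -0.76, and 7.88% of all genes were called lower and 15.4% higher. The median of the 10 genes was -0.53 as deposited and -0.27 scaled, beside -0.01 and 0.22 over all genes. This comparison shares a library with each of the others, so its values are no further evidence for them.

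**Figure D3:**
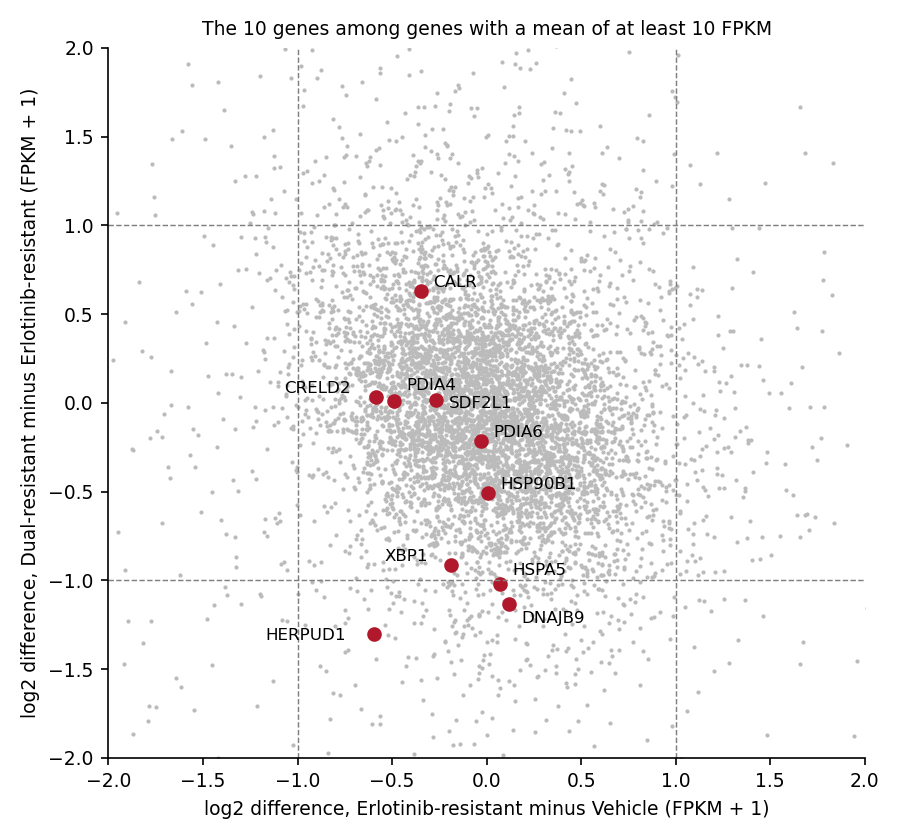
Log2 difference of FPKM + 1 for erlotinib-resistant minus vehicle (horizontal axis) and dual-resistant minus erlotinib-resistant (vertical axis), for the 10 genes (red, named) and all genes with a mean of at least 10 FPKM (grey). Both axes use erlotinib-resistant cells, dashed lines mark 1 in either direction, and 348 of 6940 genes lie outside the axes. HSPA5, DNAJB9, XBP1 and HERPUD1 lie low, CRELD2, PDIA4 and SDF2L1 near 0 on the vertical axis, and CALR above it.

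The rest of the pathway was described from 9 lists, with 168 genes compared. In dual-resistant against erlotinib-resistant cells 11 of them were called lower and 10 higher. Erlotinib-resistant cells had 9 lower and 2 higher than vehicle, and the dual-resistant library had 25 lower and 7 higher than vehicle. Over all genes compared, the shares called lower and higher were 7.22% and 10.1% for dual-resistant against erlotinib-resistant cells. They were 6.03% and 3.81% for erlotinib-resistant cells against vehicle, and 10.4% and 11% for dual-resistant cells against vehicle. With libraries scaled to the same sum the counts were 11 lower and 12 higher (dual-resistant against erlotinib-resistant), 7 and 7 (erlotinib-resistant against vehicle) and 14 and 13 (dual-resistant against vehicle). The scaled shares of all genes were 6.29% and 11.4%, 4.78% and 5.53%, and 7.88% and 15.4% in the same order. Under that scaling 11 of the calls against vehicle in dual-resistant cells were lost, among them ERN1, ATF6B, DNAJB11, ERO1L, TMED10 and GRPEL2, and 2 of those in erlotinib-resistant cells, SDF2 and CEBPB.

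Of the 10 genes of the sensors and their processing, 1 was called lower and 1 higher in dual-resistant against erlotinib-resistant cells (median -0.16). The shares over all genes compared were 7.22% lower and 10.1% higher, near these counts. ERN1, the sensor that splices XBP1, was at 1.61 FPKM in dual-resistant cells, 7.70 in erlotinib-resistant cells and 4.23 in vehicle cells. The log2 difference of FPKM + 1 was -1.74 for dual-resistant minus erlotinib-resistant. The other sensors stood within the limit. ATF6 had 15.3, 17.8 and 16.5 FPKM in the dual-resistant, erlotinib-resistant and vehicle libraries, and EIF2AK3 had 7.04, 10.1 and 7.85 FPKM in the same order. The gene called higher was CREB3L1, a relative of ATF6 also called OASIS, at 8.02 FPKM in dual-resistant cells, 0.228 in erlotinib-resistant cells and 0.151 in vehicle cells. CREB3L1 passed the filter through the dual-resistant library alone, which fixes its direction. Against vehicle, dual-resistant cells also had ATF6B lower (log2 difference -1.26). None of the 10 sensor genes was called between the erlotinib-resistant and vehicle libraries (median 0.10).

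Among 24 other ER chaperones and co-chaperones, 3 were called higher and none lower in dual-resistant against erlotinib-resistant cells (median -0.09). Over all genes compared, 10.1% were called higher and 7.22% lower. The furthest were FKBP7, a prolyl isomerase, at 4.60 FPKM in dual-resistant cells and 0.963 in erlotinib-resistant cells, and SERPINH1, the collagen chaperone HSP47, at 42.1 FPKM in dual-resistant cells, 14.4 in erlotinib-resistant cells and 47.8 in vehicle cells. HYOU1, which exchanges the nucleotide of HSPA5, had 58.4, 93.0 and 93.5 FPKM in the dual-resistant, erlotinib-resistant and vehicle libraries. DNAJC3, another J-domain partner of HSPA5, had 11.1, 11.4 and 10.2 FPKM in that order. Erlotinib-resistant cells had 2 of the 24 lower than vehicle, SERPINH1 and SDF2, and none higher (median -0.23). Dual-resistant cells had 3 lower than vehicle, CLGN (log2 difference -1.65) and DNAJB11 (-1.10) furthest, and 1 higher, FKBP7 (1.33), with a median of -0.30.

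The disulphide isomerase family and its oxidases held 16 compared genes. In dual-resistant against erlotinib-resistant cells, 3 were lower and 2 higher (median 0.15), beside 7.22% and 10.1% of all genes compared. AGR2, an isomerase of mucus-secreting epithelia, had 1.07 FPKM in dual-resistant cells, 180 in erlotinib-resistant cells and 273 in vehicle cells. ERO1L (now ERO1A), an oxidase that passes electrons from the isomerases to oxygen, had 33.8, 93.9 and 81.1 FPKM in the same order. Its paralog ERO1LB (now ERO1B) was higher in dual-resistant cells, with 3.13 FPKM in dual-resistant cells, 0.422 in erlotinib-resistant cells and 0.626 in vehicle cells, and passed the filter through the dual-resistant library alone. QSOX1, another sulphydryl oxidase, was 2.06-fold higher in dual-resistant cells than in erlotinib-resistant cells. P4HB, the founding isomerase, had 358, 295 and 392 FPKM in the dual-resistant, erlotinib-resistant and vehicle libraries, and PDIA3, which works with CALR and CANX, had 133, 122 and 191 FPKM. Only TMX4 was called between the erlotinib-resistant and vehicle libraries (log2 difference -1.27, list median -0.24). Between the dual-resistant and vehicle libraries, 2 were lower, AGR2 and ERO1L, and 2 higher, ERO1LB and TMX3 (median -0.51).

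Of the list of ER-associated degradation, no gene was called in any comparison among 21 compared as deposited. The medians were 0.01 for dual-resistant minus erlotinib-resistant, -0.12 for erlotinib-resistant minus vehicle and -0.09 for dual-resistant minus vehicle. HERPUD1, which also takes part in this degradation, is 1 of the 10 genes and was left out of the list. It was called lower in dual-resistant cells against erlotinib-resistant cells (-1.30) and vehicle (-1.90). SYVN1, the ubiquitin ligase also called HRD1, had 16.0, 27.3 and 32.0 FPKM in the dual-resistant, erlotinib-resistant and vehicle libraries. SEL1L, its adaptor, had 19.4, 33.5 and 29.1 FPKM, and EDEM1, which hands over misfolded glycoproteins, 7.16, 11.4 and 12.4 FPKM, in the same order. These were lower in dual-resistant than in erlotinib-resistant cells, as were 10 of the 21 genes in all. The furthest of the list, named after its values were seen, was VCP, the ATPase that extracts proteins from the ER membrane, at 162 FPKM in dual-resistant cells, 85.4 in erlotinib-resistant cells and 93.3 in vehicle cells. EDEM2, at 33.5 FPKM in dual-resistant cells and 19.5 in erlotinib-resistant cells, and DERL2, at 55.2 and 36.7 FPKM in the same order, were likewise higher. With libraries scaled to the same sum VCP was called higher in dual-resistant cells against both others (1.01 and 1.06), NGLY1 was called higher in dual-resistant cells against vehicle (1.08), and EDEM3 just reached the limit in erlotinib-resistant cells against vehicle.

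The 28 translocation and N-glycosylation genes had none called in dual-resistant against erlotinib-resistant cells (median -0.29) or in erlotinib-resistant cells against vehicle (median -0.22). In dual-resistant cells against vehicle 4 were called lower (median -0.38), beside 10.4% of all genes compared. The furthest of these were SEC11C, a signal peptidase subunit (log2 difference -1.54), and SRPRB, a subunit of the receptor for the signal recognition particle (-1.33). Of 20 genes of ER to Golgi transport and KDEL receptors, TMED10, a cargo receptor, was lower in dual-resistant cells, at 49.8 FPKM, than in erlotinib-resistant cells, at 110 FPKM (list median -0.19). SEC23A, a coat subunit, and LMAN1, a lectin cargo receptor, were higher in erlotinib-resistant cells than in vehicle (1.15 and 1.06 on the log2 scale, list median -0.04). Against vehicle, the dual-resistant library had TMED10 lower and SEC23A higher, and a list median of -0.02.

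The list of the EIF2AK3 and ATF4 branch had the lowest median of the 9 lists in dual-resistant against erlotinib-resistant cells (-0.88). In it 6 of 14 genes were lower and 1, VLDLR, higher, beside 7.22% and 10.1% of all genes compared. EIF2AK3 itself, in the list of sensors, was within the limit (-0.47). Whether the genes of the branch list differed through EIF2AK3 was not tested. DDIT4, an inhibitor of mTOR signalling, had 70.0 FPKM in dual-resistant cells and 448 in erlotinib-resistant cells, and ASNS, asparagine synthetase, 44.0 and 282 FPKM. DDIT3, the transcription factor CHOP, had 25.4, 120 and 101 FPKM in the dual-resistant, erlotinib-resistant and vehicle libraries. ATF4 itself had 248, 343 and 460 FPKM in that order, within the limit. Between the erlotinib-resistant and vehicle libraries 3 were lower, with NUPR1 (log2 difference -1.77) and CHAC1 (-1.51) furthest, and none higher (median -0.35). Dual-resistant cells had 9 lower than vehicle and none higher (median -1.68), with NUPR1, at 11.9 FPKM in dual-resistant cells and 102 in vehicle cells, and TRIB3 (log2 difference -2.88) furthest.

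**Figure D4:**
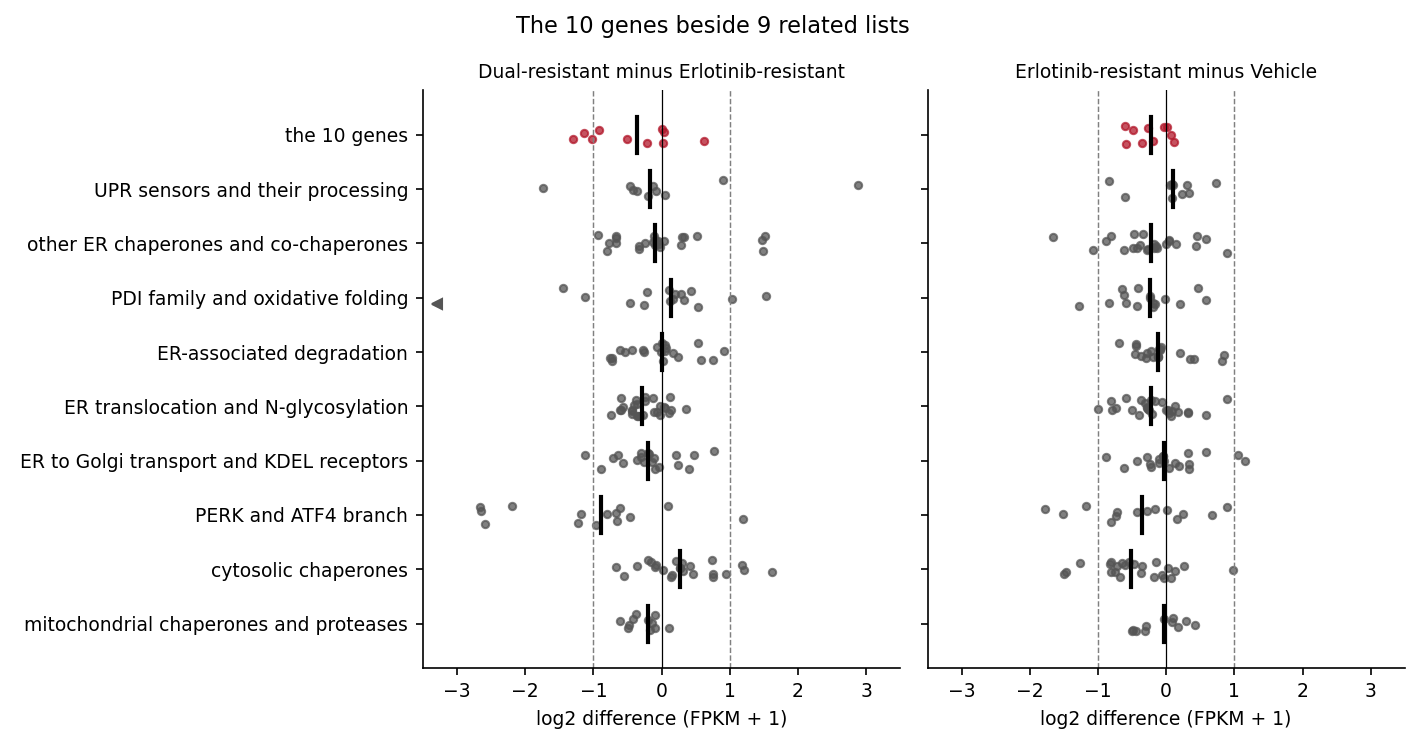
Log2 difference of FPKM + 1 of the 10 genes (red, top row) and of the genes in 9 related lists (grey), for dual-resistant minus erlotinib-resistant (left) and erlotinib-resistant minus vehicle (right), with a black bar at each median. The arrow at the left edge is AGR2, at -6.45. On the left the list of the EIF2AK3 and ATF4 branch has the lowest median, at -0.88, and the 10 genes the next, at -0.36.

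Chaperones of other compartments were set beside the ER genes. In dual-resistant against erlotinib-resistant cells, 3 of 24 cytosolic chaperones were higher and none lower (median 0.27). The furthest were DNAJB4, a J-domain protein (log2 difference 1.62), and HSPB1, a small heat shock protein (1.21). Over all genes compared 10.1% were higher and 7.22% lower, so a count this small is near that share. The shares higher and lower were 3.81% and 6.03% for erlotinib-resistant cells against vehicle, and 11% and 10.4% for dual-resistant cells against vehicle. In erlotinib-resistant cells 3 of the 24 were lower than in vehicle and none higher (median -0.51), among them HSPA8, the constitutive Hsp70 of the cytosol, and HSPA1B, whose reads cannot be told safely from those of its near-identical copy HSPA1A. Between the dual-resistant and vehicle libraries 3 were lower, DNAJB1 (-1.39) and HSPA1B (-1.32) furthest, and 2 higher, DNAJB4 (1.55) and HSPA4L (1.29), with a median of -0.15. Of 11 mitochondrial chaperones and proteases none was called in dual-resistant against erlotinib-resistant cells (median -0.20) or in erlotinib-resistant cells against vehicle (median -0.04), and only GRPEL2 was lower in dual-resistant cells than in vehicle (log2 difference -1.06, list median -0.31).

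HSPA8 (log2 difference 0.94), HSP90AA1 (0.74) and HSP90AB1 (0.22) of the cytosol were higher in dual-resistant than in erlotinib-resistant cells. HSPA5 (-1.02) and HSP90B1 (-0.51) of the ER were lower. Only HSPA5 passed the limit as deposited, and with libraries scaled to the same sum HSPA8 passed it (1.04) and HSPA5 did not (-0.92). Neither compartment moved as a whole. Of the 24 cytosolic chaperones 7 had a negative difference, and 4 of the 10 genes had a positive one, with PDIA4, SDF2L1 and CRELD2 close to 0. Other listed cytosolic genes with HSPA symbols differed from HSPA8: HSPA4 had a log2 difference of 0.02, HSPA4L 0.30, HSPA1B 0.15 and its near-identical copy HSPA1A -0.36. HSPA8 had 575 FPKM in dual-resistant cells, 299 in erlotinib-resistant cells and 845 in vehicle cells, where HSPA5 had its highest value in erlotinib-resistant cells. The ratio of HSPA5 to HSPA8 was 0.402 in dual-resistant cells, 1.57 in erlotinib-resistant cells and 0.530 in vehicle cells. HSPA9, the mitochondrial Hsp70, had 128, 172 and 214 FPKM in that order, and the ratio of HSPA5 to HSPA9 was 1.80, 2.73 and 2.09. For the Hsp90 family, HSP90AA1 had 336, 201 and 355 FPKM and HSP90AB1 422, 364 and 465 FPKM in the dual-resistant, erlotinib-resistant and vehicle libraries. The ratio of HSP90B1 to HSP90AA1 was 0.691, 1.65 and 0.932, and to HSP90AB1 0.550, 0.912 and 0.711, again highest in erlotinib-resistant cells. These ratios lie within a library, so they do not depend on how libraries are scaled.

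**Figure D5:**
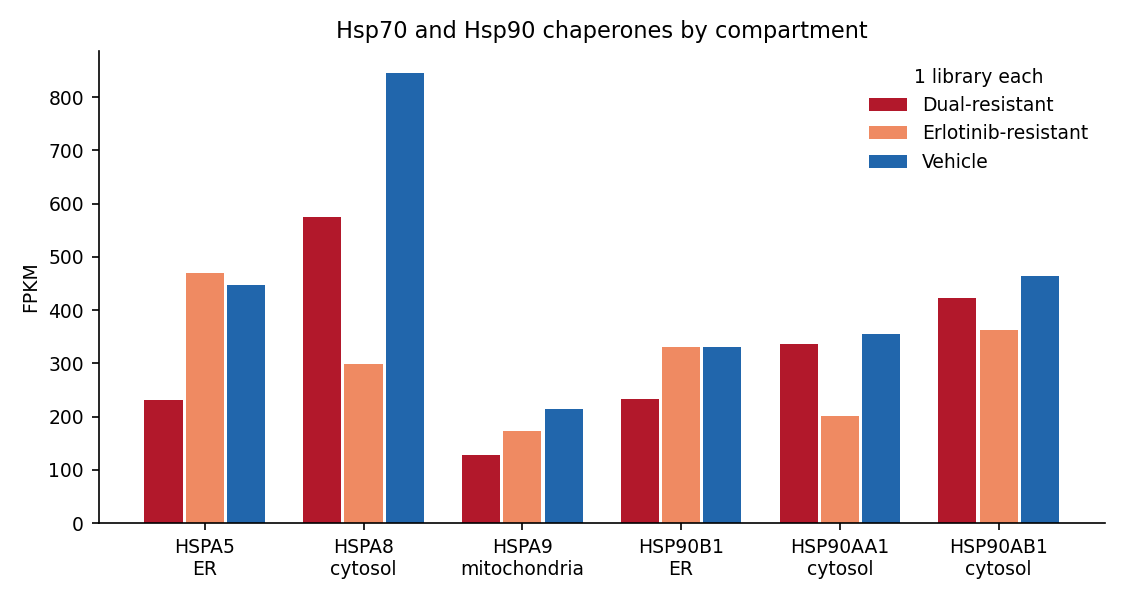
FPKM of the Hsp70 genes HSPA5, HSPA8 and HSPA9 and the Hsp90 genes HSP90B1, HSP90AA1 and HSP90AB1, labelled by compartment, with 1 bar per library in the dual-resistant (dark red), erlotinib-resistant (orange) and vehicle (blue) populations. The cytosolic genes HSPA8, HSP90AA1 and HSP90AB1 have their lowest bar in erlotinib-resistant cells, and HSPA5 and HSP90B1 have theirs in dual-resistant cells.

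Genes near the medians of the 10 were sought among 6930 other genes with a mean of at least 10 FPKM, over 3 libraries. The measure was the distance of their pair of log2 differences from those medians. The 10 genes themselves lay up to 1.94 apart (CALR and HERPUD1), so the medians do not stand for the pattern of each gene. The nearest 8 were DPM2, MRP63, ARL1, MAGT1, ANXA3, COMMD2, SPSB3 and SDHAF1, at distances up to 0.0335. With 87 genes within 0.1 of the medians, many genes lie near such a point over so few libraries.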

How the data were processed

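RNA was sequenced from 3 HCC827 populations, 1 library each. Per the submitters' processing notes, TopHat 1.3 and Cufflinks 1.3 were used with the build GRCh37, and the authors deposited FPKM per gene. What gene set, settings or strandedness they used is not given in the sources used here, and overlapping antisense genes may share reads. The deposited start coordinates appear to count from 0 and are printed from 1.

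Values of repeated symbols were added together. Differences are of log2(FPKM + 1), for genes that reached 1 FPKM in 1 or more libraries, which understates differences of low genes. With 1 library per group no test was run, and a gene was called at a log2 difference of 1 in either direction. Depth was estimated by taking percentile 1 of the values above 0 of single-exon genes of 1 to 5 kb, times length, as the worth of 1 fragment, and is approximate. The script was tested on simulated data. Python 3.11.15, pandas 2.3.3 and NumPy 2.4.6 were used.

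The 10 genes and the 9 lists were chosen with earlier results of these data known. The text names all 10 genes, and up to 2 genes furthest in each direction per list among those called. It also names a set of sensors, chaperones and degradation genes, and the 8 genes nearest to the medians of the 10. The share of calls among genes with a mean of at least 10 FPKM, and the ratios within a library, were added after the values were seen. RTCB and VIMP were matched to their table symbols C22orf28 and SELS through the RefSeq gene table. Promoter windows came from RefSeq on GRCh38.p14, another build than that of the table, and were matched by Entrez ID. Planned protein features were not analysed here.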

Additional observations from a re-analysis of the deposited data

How the results depend on the processing

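The alternatives were pseudocounts of 0.1 and 5, no filter, both scalings, the highest row for a shared symbol and a limit of 1.5-fold. With libraries scaled to the same sum, the median of the 10 genes moved to -0.058 for erlotinib-resistant minus vehicle and to -0.27 for dual-resistant minus vehicle, and 1 gene was called lower in dual-resistant minus vehicle in place of 3. The scaling itself shifts every difference by the ratio of the sums. With the limit of 1.5-fold, CALR was 1 gene called higher in dual-resistant against erlotinib-resistant cells, and HERPUD1 and CRELD2 were 2 called lower in erlotinib-resistant cells against vehicle. That limit called 53 list genes in either direction (dual-resistant against erlotinib-resistant), 49 (erlotinib-resistant against vehicle) and 65 (dual-resistant against vehicle). Over all genes compared it called 16.9% lower and 18.5% higher (dual-resistant against erlotinib-resistant). The shares were 14.3% and 12.4% for erlotinib-resistant cells against vehicle, and 20.6% and 20.7% for dual-resistant cells against vehicle. With a pseudocount of 5, DNAJB9 was within the limit, at -0.93 for dual-resistant minus erlotinib-resistant and -0.83 for dual-resistant minus vehicle. With a pseudocount of 0.1 CRELD2 (-0.62) was below HERPUD1 (-0.60) for erlotinib-resistant minus vehicle. With median-of-ratios scaling DNAJB9 stood at -0.998, just within the limit, for dual-resistant minus vehicle. The other 80 summary values kept within 1.5 times the count or close to the value reported. That range takes in the count of 3 genes lower in dual-resistant against erlotinib-resistant cells, which was 2 with a pseudocount of 5 and under either scaling. Against vehicle the count of 3 was 2 with a pseudocount of 5 and with median-of-ratios scaling. Of the values of single genes, 176 stayed close and 34 moved further or across the limit in use. Allowing 1 mismatch raised the genes of the 10 with an ERSE to 8, and the share of all genes to 1.89%. No paired analysis was possible because each group has 1 library, and for the same reason no library could be left out. Depth limits none of the 10 genes by the estimate given, but the spread between cultures is unknown.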

Other observations

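Outside the 10 genes, 10 other genes compared held the ERSE in their promoter window. A window was matched for 10328 of the 13425 genes, the 10 among them, and the rest were not searched. In dual-resistant against erlotinib-resistant cells 2 of them were called lower, FICD and EIF2A, and 2 higher, ERO1LB and SYNPO, with a median log2 difference of -0.02. Of all genes compared, 7.22% were called lower and 10.1% higher. ERO1LB passed the filter through the dual-resistant library alone, which fixes its direction. FICD, an enzyme that adds AMP to HSPA5, had 1.22 FPKM in dual-resistant cells, 4.55 in erlotinib-resistant cells and 5.04 in vehicle cells. SERP1, a protein of the ER translocon, had 44.2, 83.3 and 86.2 FPKM in the same order, a log2 difference of -0.90 between the resistant libraries, close to the -0.92 of XBP1. EIF2A, a translation initiation factor, had 22.5, 46.2 and 25.8 FPKM, with a log2 difference of -1.01 that was -0.92 with libraries scaled to the same sum and -0.96 with median-of-ratios scaling, within the limit, and SYNPO, an actin-binding protein, 20.4, 7.07 and 5.84 FPKM. SERP1, CANX and the rest of the 6 genes not called lay within the limit. These genes were looked at after the values of the 10 were seen, and none was called between the erlotinib-resistant and vehicle libraries. EIF2A and SERP1 are neighbours with overlapping promoter windows, so they hold the same match.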
